A study of Caenorhabditis elegans with 40 samples.

Results

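5 histone genes of Caenorhabditis elegans, his-5, his-6, his-39, his-67 and his-68, carried a site of the heat shock transcription factor HSF-1 that was assigned to the germline. They were selected on the authors' peak positions and germline differential scores, as the genes among the 72 numbered his genes, and the 19973 protein-coding genes of the nuclear chromosomes, with a germline-class peak within 1000 bp of an annotated transcription start site (TSS). Their presence in the germline class is therefore a description and is not tested. The sites come from chromatin immunoprecipitation with an antibody to GFP, followed by sequencing (ChIP-seq), of whole young adults.

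All animals carried hsf-1::aid::gfp, in which HSF-1 is fused to an auxin-inducible degron and GFP, and the allele unc-119(ed3). In strain JTL611 the degron was recognised by a TIR1::mRuby transgene driven by eft-3p, which the labels give as TIR1 in the soma. In strain JTL621 the transgene was driven by sun-1p, given as TIR1 in the germline. Animals of each strain spent 2 h on auxin plates, which deplete HSF-1 in the tissue with TIR1, or on ethanol plates as the control. They were collected at 20 °C or after a heat shock of 30 min at 34 °C, which gives 8 HSF-1 ChIP groups of 2 libraries. The data used here are 2 files of summits found in the control animals of both strains, and 6 lists that sort these summits by where depletion of HSF-1 removed signal. A site where a loss of signal was called on germline depletion alone is named germline class here. A loss called on soma depletion alone gives the soma class, and on each of the depletions the shared class. None of these files holds values per library, so neither the spread between replicates nor the depth is known, and no value below has an error. In whole animals, HSF-1 bound in few cells and HSF-1 bound weakly in many cells cannot be told apart.

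Core histones H2A, H2B, H3 and H4 form the protein core on which DNA is wound into nucleosomes. Most of their genes in C. elegans are short, lack introns and lie in clusters as head-to-head pairs, an H3 gene with an H4 gene or an H2A gene with an H2B gene, so that the pair shares the DNA between its start sites. Their messages are needed mainly during DNA replication, which in the adult worm goes on in the germline, while HSF-1 is best known for inducing chaperone genes in response to heat.

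Of the members, his-5 and his-67 are H4 genes, his-6 is an H3 gene, his-68 is an H2A gene and his-39 belongs to the H2B genes. All 5 had a single exon in the Ensembl annotation of the WBcel235 assembly. Their coding lengths gave 103 residues for his-5 and his-67, 136 for his-6 and 127 for his-68. The product of his-39, at 67 residues, was shorter than any of the other members' products. For comparison, the H2B gene his-8 gave 123 residues. The gene models of all 5 began and ended with the coding sequence, so that each TSS used here is the first coding base and any untranslated leader is not included. None of the 5 symbols stood on more than 1 gene identifier, whereas 14 of the 50 his symbols did.

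The 5 members lay at only 2 sites. On chromosome V a summit at position 8535935 at 20 °C served his-5 (8535214 to 8535525, plus strand), his-6 (8534567 to 8534977, minus strand) and his-39 (8536513 to 8536716, plus strand). On chromosome I a summit at position 9988968 served his-67 (9988452 to 9988763, minus strand) and his-68 (9989132 to 9989515, plus strand). Summits are given as deposited, on a build that no source used here names, and genes as in WBcel235. The fit between them on these chromosomes was resolved only to between 200 and 500 bp, as described with the processing. The distances below hold if both share coordinates, and a placement within a gap narrower than that is not certain.

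**Figure D1:**
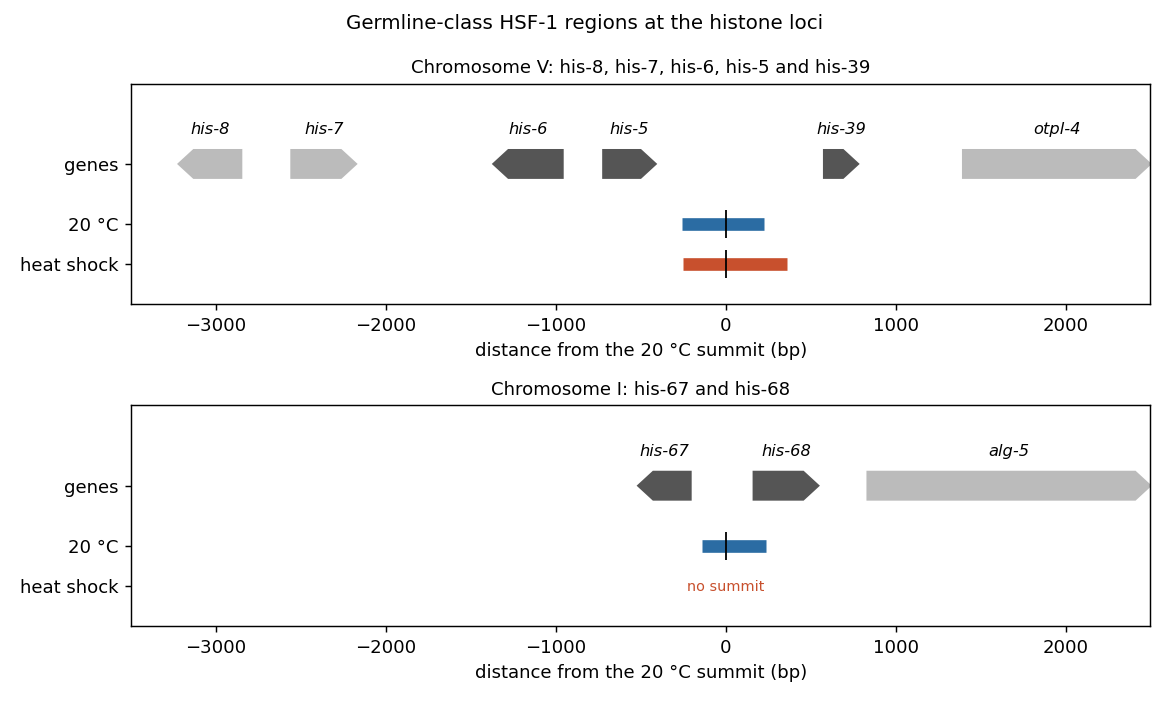
Maps of both loci, with distance from the 20 °C summit in bp on the x axis, genes as arrows (members dark, neighbours light), the authors' differential regions as bars (blue for 20 °C, red for heat shock) and summits as vertical ticks. The site on chromosome V lies in the gap between his-5 and his-39 in both conditions, and the site on chromosome I lies between his-67 and his-68 and has no summit after heat shock.

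The chromosome I site sat in the DNA shared by a divergent H4 and H2A pair. The starts of his-67 and his-68 are separated by a gap of 368 bp, and the 20 °C summit lay 20.5 bp from its midpoint. It was 205 bp upstream of the start of his-67 and 164 bp upstream of the start of his-68. The differential region, the stretch the authors' comparison found to lose HSF-1 on depletion, ran from 9988829 to 9989208 and was 380 bp long. Of this length 77 bp overlapped his-68 and the rest overlapped no annotated gene.

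The peak was shared with a gene that is no histone gene. The start of alg-5, which encodes an Argonaute protein, lay 834 bp from the summit, on the far side of his-68 and in the same direction. The next gene, sys-1, which encodes a beta-catenin-like protein of Wnt signalling, had its nearest start 4174 bp away. The his-67 and his-68 pair is a cluster of its own, since no other his gene lay within 10000 bp.

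The chromosome V site did not lie in a divergent gap. It lay in the 987 bp between the end of his-5 and the start of his-39, which point the same way. The 20 °C summit was 410 bp past the end of his-5 and 578 bp upstream of the start of his-39. Measured from start sites, it was 721 bp downstream of the start of his-5 and 958 bp upstream of the start of his-6. The midpoint of the 236 bp gap shared by his-6 and his-5 was 839.5 bp from the summit.

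These 3 genes belong to a cluster of 5 his genes that spans 4002 bp, together with the H2A gene his-7 and the H2B gene his-8. The starts of his-7 and his-8 lay 2556 and 2849 bp from the 20 °C summit, outside the distance used. At the threshold of 1000 bp, his-6 was the gene just inside, and otpl-4, an otopetrin-like gene next to his-39, was just outside at 1396 bp. The differential region at 20 °C ran from 8535676 to 8536161, 486 bp, and overlapped no annotated gene. As deposited, it thus held no histone coding sequence, of which near-identical copies exist. This is not certain, since the end of his-5, at 8535525, lay nearer to the region than the resolution of the coordinate fit. Whether copies shared reads was not tested at either site. The part of the chromosome I region inside his-68 is uncertain, since copies may share reads.

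At 20 °C a germline-class peak lay within 1000 bp of all 5 members, beside 0.521% of all protein-coding genes. After heat shock it lay within 1000 bp of 3, his-5, his-6 and his-39, beside 0.135% of all genes. Both conditions entered the choice of the members, so that nothing is read from either share. None of the 5 had a soma-class peak (0.16% of all genes at 20 °C and 0.355% after heat shock) or a shared-class peak (0.551% and 0.215%). No soma depletion region in the lists overlapped any of the 3 germline-class regions. A germline-class site is by definition one with no loss called on soma depletion, so nothing is read from these absences either. A soma loss below the authors' calling threshold would not be seen. Of the common summits, 32 of 500 at 20 °C and 28 of 441 after heat shock were in no class.

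The site on chromosome V kept its position and its class after heat shock. Its summit was at 8535940, a shift of 5 bp, and its differential region ran from 8535682 to 8536297. The region was 616 bp long, and 480 bp of it overlapped the 20 °C region. For comparison, 109 of the 179 germline-class peaks of 20 °C had an overlapping heat shock peak, with a median shift of 8 bp between summits, and 38 of these had shifted by at most 5 bp.

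The site on chromosome I had no counterpart. No common summit after heat shock, whether in a class or in none, lay within 100 bp of it, and the nearest was 168.6 kb away. A summit below the authors' calling threshold would not be seen in these files. Among genes whose only class at 20 °C was the germline class, 100 in number, 63 had no common summit after heat shock, as his-67 and his-68 did, and 11 were again in the germline class alone, among them the 3 members on chromosome V. The other outcomes included 10 genes whose peak was in the shared class alone. Both members' patterns thus also occurred at other genes.

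The authors' peak score was modest at both sites at 20 °C. What this score is relative to is not stated, so it is read only within a list. By the peak names it comes from strain JTL611, whereas germline depletion, behind the differential score, was in strain JTL621. The chromosome V peak had a score of 149 and ranked 115 of the 179 germline-class peaks at 20 °C. The chromosome I peak had a score of 62.6 and ranked 163. The median score of the list was 211.8, above both. Among all 500 common summits at 20 °C, whose median score was 470.5, these peaks ranked 370 and 465.

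After heat shock the chromosome V peak had a score of 1131 and ranked 32 of 92 germline-class peaks, above the list's median of 606.6. Among the 23 of these that had a protein-coding TSS within 1000 bp it ranked 4. At 20 °C it had ranked 37 of 77 such peaks, and the chromosome I peak 67 of 77. In the file of all 441 common summits after heat shock, with a median score of 2884, it ranked 284. The lists differ in length and in scale, so whether the site changed with heat cannot be read from these ranks.

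**Figure D2:**
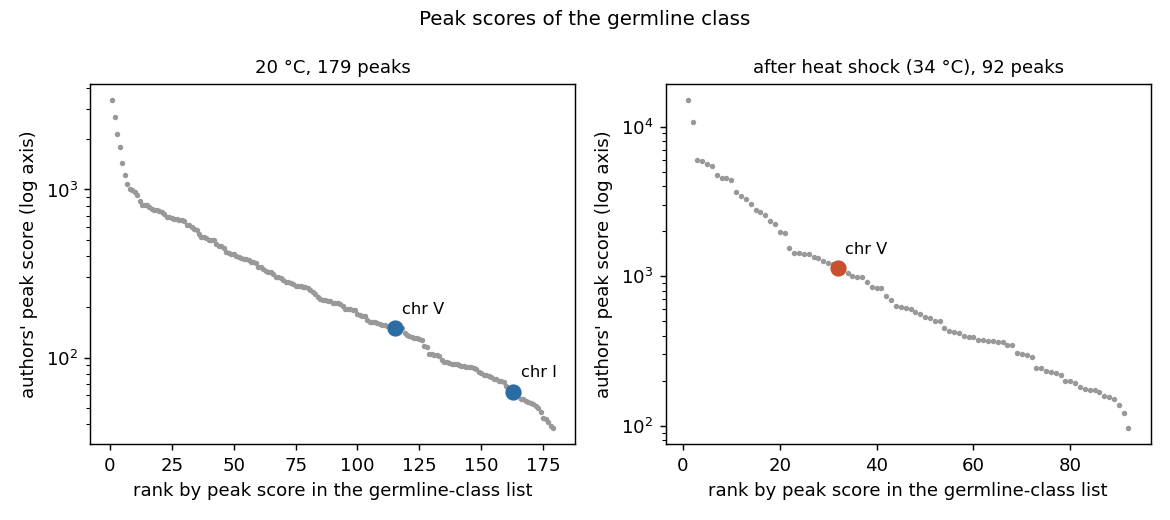
Peak scores of the germline-class lists in order of rank, at 20 °C (left) and after heat shock (right), with the authors' peak score on a log axis. Grey points are single peaks and large points the histone sites, at ranks 115 and 163 of 179 on the left and 32 of 92 on the right.

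The differential score comes from the p-value of the authors' comparison of control and germline-depleted animals, as a negative logarithm whose base is not given. It chose the members and is given as a description. At 20 °C it was 77.6 at the chromosome V site, rank 95 of 179, and 28.8 at the chromosome I site, rank 160, beside a list median of 85.3. After heat shock it was 57.5 at the chromosome V site, rank 37 of 92, beside a median of 45.0. The regions ranked 106 and 151 of 179 by length at 20 °C, and the chromosome V region ranked 28 of 92 after heat shock. Of the histone sites, the one on chromosome I was thus lower than the one on chromosome V by peak score, differential score and region length at 20 °C.

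**Figure D3:**
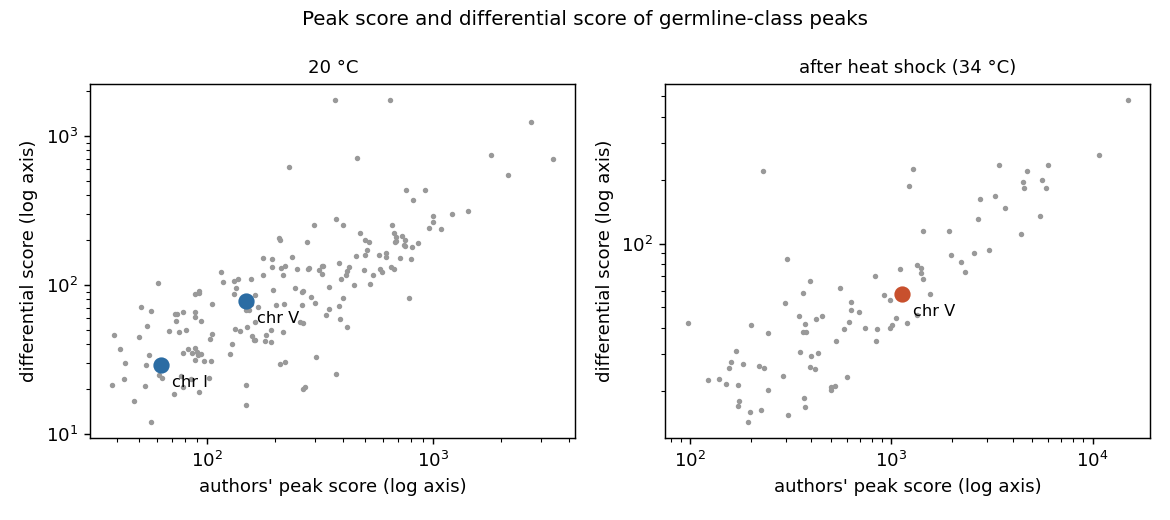
Peak score on the x axis against the differential score of germline depletion on the y axis, both on log axes, for the germline-class peaks at 20 °C (left) and after heat shock (right). Each grey point is a peak, and the large points mark the histone sites, which lie among the other peaks of similar score. By their names the peaks come from strain JTL611, whereas germline depletion was in strain JTL621.

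The other numbered his genes had no common summit near their starts. Of the 72 his genes, in 19 clusters or single genes when neighbours within 10000 bp were joined, the 5 members were the only ones with a common summit within 1000 bp in either condition, beside 1.27% of all protein-coding genes at 20 °C and 0.806% after heat shock. The members were chosen by such peaks, so nothing is read from their share. At shares this low, few or no summits are to be expected among the 67 other his genes. Nothing is read from their absence either. The other genes of the chromosome V cluster, his-7 and his-8, were the only additional his genes within 10000 bp of a summit at 20 °C. Outside the clusters of the members, the shortest distance from a his gene's start to a summit was 28.0 kb at 20 °C, at a copy of his-58, and 7.00 kb after heat shock, at his-69. The median over the 67 other his genes was 58.2 kb at 20 °C and 88.6 kb after heat shock. Of the 50 his symbols, 14 stood on more than 1 gene identifier, none of them a member's. Copies may share reads, and whether this affected the calling of summits at them was not tested. A missing summit there is thus no measure of missing HSF-1.

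Head-to-head his pairs numbered 31, with gaps of 227 to 368 bp and a median of 258 bp. As deposited, a summit lay in the gap of 1 of these pairs at 20 °C, that of his-67 and his-68, which was also the widest gap. After heat shock it was 0 of 31. The divergent gaps of the chromosome V cluster, between his-6 and his-5 and between his-8 and his-7, held none in either condition.

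**Figure D4:**
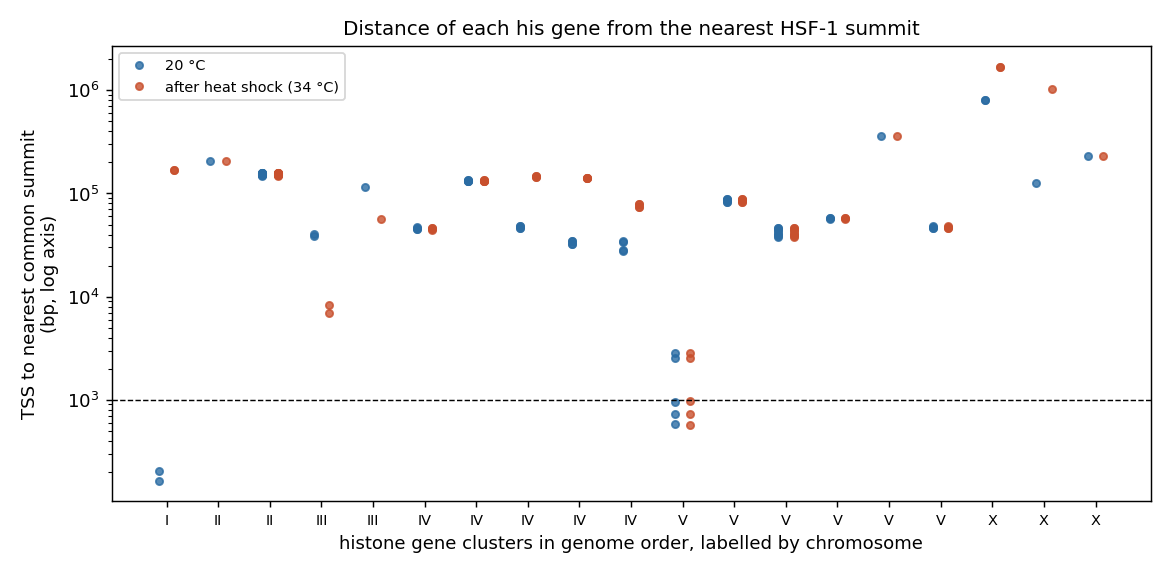
Distance in bp (log axis) from the start of each of the 72 his genes to the nearest common HSF-1 summit, by cluster in genome order, at 20 °C (blue) and after heat shock (red); the dashed line is the 1000 bp threshold. Points fall under the line only for his-67 and his-68 on chromosome I, at 20 °C alone, and for his-5, his-6 and his-39 on chromosome V in both conditions.

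Genes that act with the core histones were described with lists chosen with earlier results of these data known. The list of linker histones and histone variants held 18 genes, some of which are numbered his genes also counted above. Of the 18, 2 had a listed peak at 20 °C, and the heat shock lists held 0. These were hcp-3, the gene of the H3 variant of centromeres, and cpar-1, which encodes a close relative of it. Both peaks were in the germline class. The summit at hcp-3 lay 638 bp upstream of its start with a peak score of 1800, rank 4 of 179, and the summit at cpar-1 lay 226 bp upstream with a score of 88.2, rank 144. After heat shock hcp-3 had a common summit in no class and cpar-1 had none.

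Of 9 genes for histone mRNA processing and histone chaperones, 1 had a listed peak at 20 °C, unc-85, which encodes a homologue of the H3 and H4 chaperone ASF1. Its summit lay 251 bp upstream of the start, in the germline class, with a score of 92.2 and rank 137 of 179. It had no common summit after heat shock. None of 11 DNA replication genes, which included the genes of the MCM helicase, the sliding clamp and ribonucleotide reductase, had a common summit in either condition. Beside these lists, 1.20% of all protein-coding genes had a listed peak at 20 °C and 0.696% after heat shock. A common summit was found at 1.27% and 0.806%. At such shares few or no summits are to be expected among 11 genes, so nothing is read from that absence.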

How the data were processed

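The files were peak lists made by the authors from HSF-1 ChIP-seq. The submitters' processing notes name Bowtie2 and MACS2 with no version. The build, the filters and any pooling of replicates are stated in no source used here. The deposited peak score, and the differential score (a negative log p-value, base unknown, per the file headers), were each used as a score within a list. Per the peak names in the files, summits came from strain JTL611. Libraries of RNA polymerase II and input were not analysed here.

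Exact repeats were dropped, which left 92 of 100 rows in the germline list after heat shock. Summits, converted to 1-based positions, were assigned to every gene with a protein-coding TSS within 1000 bp (Ensembl release 115, WBcel235). All 5 members had the same start and end in the RefSeq gene table of WBcel235. To check the coordinates, soma-class summits after heat shock were counted within 300 bp of a TSS. On chromosome V this held for 16 of 22 as deposited, and for 9 and 7 after a move of 500 bp towards lower and higher positions. On chromosome I it held for 6 of 10, and for 2 and 2. Moves of 200 bp gave 16 and 16 on V and 5 and 5 on I, so that the fit is resolved only to between 200 and 500 bp.

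The members and lists were chosen with earlier results of these data known. Named genes were the members, the genes that share their peaks or clusters, and genes of the fixed lists with a peak; sys-1, otpl-4, his-58 and his-69 were named after their values were seen. No test was run, since the class chose the members and no file holds values per library. The assignment and overlap functions were tested on simulated data. The planted gene was rightly assigned or left out for 400 of 400 planted summits, placed within or beyond 1000 bp. The expected answer used the same distance rule, and other genes assigned to a planted summit were not checked. The overlap was right for 400 of 400 planted pairs of regions. Promoter motifs and protein comparisons were not run, as no sequence was used here. Python 3.11.15 was used.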

Additional observations from a re-analysis of the deposited data

How the results depend on the processing

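The assignment of the chromosome V site rests on the distance allowed. With 500 bp in place of 1000 bp, 2 members had a germline-class peak at 20 °C (his-67 and his-68) and 0 after heat shock, 1 listed peak lay at a member in place of 3, and 2 his genes had a listed peak. With only the nearest TSS of each summit, 2 members had one at 20 °C (his-39 and his-68) and 1 after heat shock (his-39), and 2 his genes had a listed peak. With peaks below their list's median score left out, 0 members had one at 20 °C, while after heat shock the count stayed at 3. With 2000 bp these counts did not change. Ranked among the peaks of all classes, the sites stood at 446 (chromosome I) and 364 (chromosome V) of 468 at 20 °C and at 284 of 413 after heat shock. The alternative values of the overlap, the start used, the cluster gap and repeated rows were within 1.5 times the reported ones. No paired analysis was possible because no list gives values for single libraries, and leaving out a replicate was not possible for the same reason. The depth behind each summit is unknown.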

Other observations

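The histone sites stood far from other HSF-1 sites. At 20 °C the nearest other common summit was 195.3 kb from the chromosome I site and 122.1 kb from the chromosome V site, against a median of 24.5 kb over the 179 germline-class peaks. Of these peaks, 24 were farther from their neighbour than the chromosome I site and 42 farther than the chromosome V site. After heat shock the chromosome V site was 219.8 kb from its neighbour, against a median of 17.6 kb over 92 germline-class peaks, of which 7 were farther.

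By their setting both sites had many counterparts in the germline class. At 20 °C 44 of the 179 peaks lay in a gap between divergent protein-coding genes, as the chromosome I site did, and 60 lay in a gap between genes that point the same way, as the chromosome V site did. A further 58 lay inside a gene, and 15 lay between convergent genes.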
